A study of Homo sapiens with 15 samples.

Results

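The genes described here changed little in K-562 cells at 0.15 and 0.25 µM martinostat and stood at 2 or more times the untreated level at 0.5 and 1 µM. K-562 is an established human line that was derived from a patient with chronic myeloid leukaemia and expresses BCR-ABL, and martinostat is an inhibitor of histone deacetylases (HDACs). Polyadenylated RNA was sequenced from 15 libraries in 5 groups of 3 biological replicates. One group was left untreated, and the others received martinostat for 24 h at 0.15 or 0.25 µM (the low doses) or at 0.5 or 1 µM (the high doses). All groups were the same line in the same medium, and the samples differed by dose alone as far as the labels say. The members were chosen by their group means of CPM (a gene's count scaled by the sum of all counts of its library). A member was a protein-coding gene with an untreated mean of at least 1 CPM, means at 0.15 and 0.25 µM both between 0.67 and 1.5 times untreated, and means at 0.5 and 1 µM both at least 2 times untreated. This left 172 of the 11168 protein-coding genes with at least 1 CPM in untreated cells, among 60649 genes in the count table. Of those 11168 genes, 4726 stayed in the band at both low doses and 2287 were at least 2 times untreated at both high doses. For comparison, 1319 genes were at least 2 times untreated at all 4 doses, and 118 stayed in the band at 0.15 µM and were at least 2 times untreated from 0.25 µM. Because the rule used every dose against untreated cells, these contrasts are given as a description and were not read as tests.

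HDACs remove acetyl groups from histones and from other proteins such as tubulin, and their inhibitors change the transcription of many genes. Several members belong to systems that cells use under stress. In autophagy, the kinase ULK1 starts the formation of autophagosomes, WIPI proteins mark the growing membrane, LC3 proteins coat it, and the receptor p62 (SQSTM1) carries cargo to it. Autophagosomes fuse with lysosomes, whose genes often share a promoter sequence called the CLEAR element that is bound by TFEB and related factors. Chaperones of the HSP70 and HSP40 families refold damaged proteins, and immediate early genes such as NR4A1 encode transcription factors that respond quickly to signals.

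Library totals lay between 23755510 and 32805574 counts. Of the erythroid markers of K-562 cells, HBG1, HBG2, HBZ, GATA1, KLF1 and TAL1 were present in untreated cells at means from 97.9 to 841 CPM, whereas HBE1 was near 0 (0.135 CPM). CD3E, MS4A1, CD14 and PECAM1 were at or near 0 in untreated cells (0 to 0.432 CPM), but COL1A1 (3.50), ALB (12.6) and EPCAM (113 CPM) were not, and COL1A1 stood at 407 CPM at 1 µM. The libraries of replicate 3 at 0.25 and 0.5 µM stood apart from the other libraries on the principal component 3 (scores of 70.1 and 75.4, against −42.5 to 16.02 elsewhere). Replicate 3 at 0.5 µM was the lowest of its group in 66 members and the highest in 81. Values without these 2 libraries are given where they bear on a result. A bulk measurement cannot tell a change in all cells from a change in the share of some cells, nor can CPM tell more RNA of a gene from less RNA of the others.

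At 0.5 µM the members stood at a median of 2.40 times untreated, and at 1 µM also at 2.40 times. Their ratios ranged from 2.00 to 8.10 at 0.5 µM and from 2.00 to 9.74 at 1 µM, with 28 and 25 members at 3 times untreated or more. The medians at 0.15 and 0.25 µM were 1.09 and 1.30, where the medians over all 11168 expressed genes were 1.08 and 1.11 (1.00 and 0.985 at 0.5 and 1 µM). By library, the median ratio of the members was 1.08 to 1.11 at 0.15 µM, 1.249 to 1.28 at 0.25 µM, 2.36 to 2.50 at 0.5 µM and 2.33 to 2.50 at 1 µM. In 155 members (90.1%), all 6 libraries at 0.5 and 1 µM lay above all 9 others, a pattern the rule favours and that 10.5% of the expressed protein-coding genes showed. With the libraries of replicate 3 at 0.25 and 0.5 µM left out, the 5 remaining high-dose libraries lay above the 8 others in 170 members. The rule favours this pattern too, and its share over all expressed genes was not computed, so this count is a description. Together the members took 1.498 to 1.59% of all counts in untreated libraries and 3.34 to 4.23% at the 2 high doses. The untreated level of the members had a median of 32.1 CPM, close to that of all expressed protein-coding genes (35.1 CPM).

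**Figure D1:**
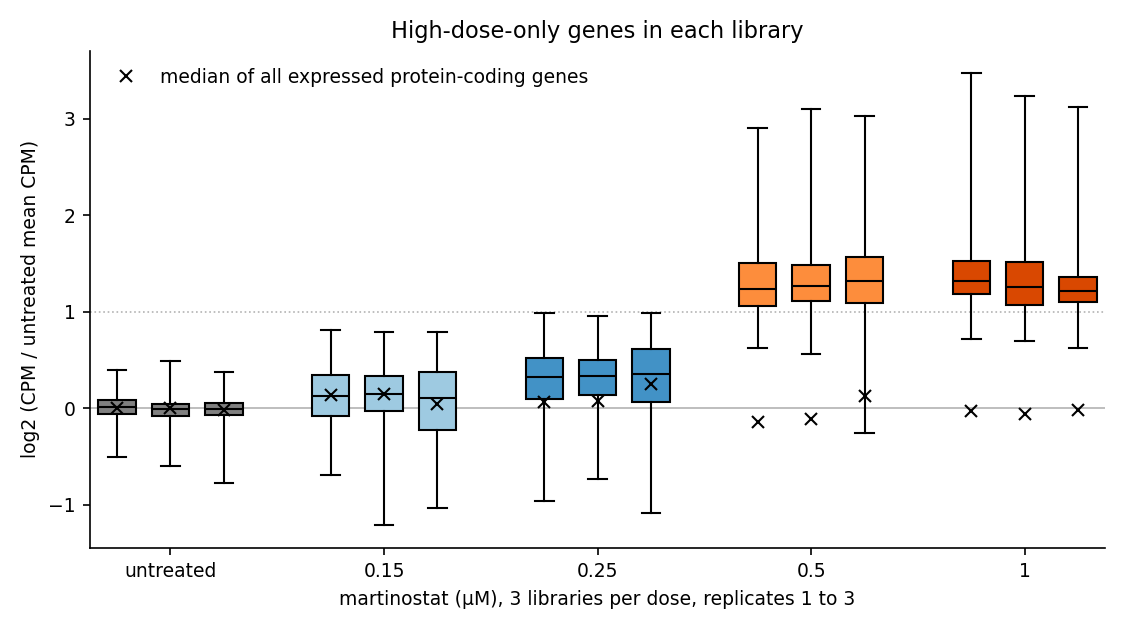
Log2 of CPM over the untreated mean for the 172 members in each of the 15 libraries, with boxes from the lower to the upper quartile, a line at the median and whiskers to the lowest and highest member. Crosses mark the median of all 11168 expressed protein-coding genes. The boxes of the 6 libraries at 0.5 and 1 µM lie above 1 (dotted line), and those of the 9 others lie below it.

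The gene with the highest ratio was NR4A1 (ENSG00000123358.20, chr12:52022832-52059507, plus strand), an orphan nuclear receptor of the immediate early class. NR4A1 had 3.69, 6.19 and 5.77 CPM in the untreated libraries, 7.98, 8.26 and 7.04 at 0.15 µM and 9.08, 5.72 and 6.26 at 0.25 µM. NR4A1 reached 35.7, 40.5 and 41.2 CPM at 0.5 µM and 57.8, 49.0 and 45.5 at 1 µM. The 6 high-dose libraries lay far above the 9 others, and the 3 libraries at 1 µM lay above the 3 at 0.5 µM. The means were 1.49 and 1.35 times untreated at the low doses and 7.502 and 9.74 times at the high doses, and 0.5 stood above 0.25 µM by log2 2.63 ± 0.22 (SE). KLF10, a Krüppel-like transcription factor of the same list, followed at a smaller scale, with ratios of 2.32 and 2.51 at 0.5 and 1 µM. Of the 58 tested immediate early and AP-1 genes, these 2 included, 20 were higher and 17 lower at 0.5 than at 0.25 µM by the quasi-likelihood test of edgeR (17 and 17 with library totals), beside 14.4% and 16% of all 23711 genes tested. Over all tested genes the median of this step was log2 0.02 with TMM and −0.12 with library totals, and 47.3% and 34.8% of all calls were higher, so the counts of each list are to be read against these values. DUSP1, a phosphatase of MAP kinases, missed membership only through its ratio of 0.664 times untreated at 0.15 µM. DUSP1 stood at mean 20.2, 13.4, 18.3, 104 and 121 CPM from untreated cells to 1 µM (log2 2.64 ± 0.17 (SE) for 0.5 against 0.25 µM). It was picked for meeting all other conditions of the rule, which required this rise, so the value is a description.

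RELB (ENSG00000104856.14, chr19:45001461-45038192, plus strand) encodes a subunit of NF-κB and was the member with the highest step between 0.25 and 0.5 µM. RELB had 1.56, 1.31 and 1.503 CPM in the untreated libraries, 0.993, 0.629 and 2.03 at 0.15 µM and 1.91, 0.877 and 0.995 at 0.25 µM. RELB reached 8.59, 8.66 and 5.05 CPM at 0.5 µM and 8.70, 8.33 and 5.72 at 1 µM. Its high-dose libraries all lay above the others, and the libraries of replicate 3 were the lowest at both high doses. The step was log2 2.74 ± 0.42 (SE). RELB was the only member among 59 tested NF-κB and cytokine genes, of which 36 had the untreated level needed for membership. Of the 59, 8 were higher and 22 lower at 0.5 than at 0.25 µM (5 and 22 with library totals), beside 14.4% and 16% of all genes. VASN, a membrane protein known to bind TGF-β, came next after NR4A1 at 1 µM. VASN had 5.11, 3.75 and 4.63 CPM in the untreated libraries, 5.15, 3.15 and 3.96 at 0.15 µM and 6.11, 6.26 and 7.55 at 0.25 µM. VASN stood at 33.8, 38.6 and 36.8 CPM at 0.5 µM and 36.5, 35.2 and 35.9 at 1 µM. These libraries did not overlap between low and high doses, with ratios of 8.10 and 7.98. FGF22, a fibroblast growth factor, was low in all 9 low-dose and untreated libraries (0.732 to 1.44 CPM) and stood between 3.81 and 7.11 CPM in the 6 high-dose libraries.

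MKNK2 (ENSG00000099875.16, chr19:2037465-2051244, minus strand) encodes a kinase that phosphorylates the translation factor eIF4E. MKNK2 had 124, 127 and 129 CPM in the untreated libraries, 118, 104 and 91.0 at 0.15 µM and 158, 158 and 122 at 0.25 µM. MKNK2 reached 741, 813 and 674 CPM at 0.5 µM and 823, 748 and 676 at 1 µM. The high-dose libraries did not overlap with the others, and the means were 5.86 and 5.91 times untreated. EIF4EBP2, a repressor of eIF4E, and EEF2, the elongation factor that moves the ribosome along the mRNA, were members too. EEF2 had 4780.1, 4925 and 5546 CPM in the untreated libraries, 7516, 6398 and 8007 at 0.15 µM and 8066, 8554 and 5461 at 0.25 µM. EEF2 reached 12803, 13973 and 8697 CPM at 0.5 µM and 13034, 11083 and 12672 at 1 µM. EEF2 had the highest mean CPM of the members in every group, and its libraries of replicate 3 were lowest at 0.25 and 0.5 µM. Its low-dose ratios of 1.44 and 1.45 sat just under the upper edge of the band. With group medians, or without replicate 3 at 0.25 and 0.5 µM, EEF2 did not meet the rule. EIF4EBP2 stood at 257 ± 16.5 CPM (SD, n = 3) without martinostat and at 583 ± 45.4 CPM (SD, n = 3) at 1 µM. MCL1 (ENSG00000143384.14, chr1:150560895-150579738, minus strand), a BCL-2 family protein that protects cells from apoptosis, was the only member among 61 tested apoptosis regulators. Of these regulators, 52 had the untreated level needed for membership (1 of 52 is 1.92%, near the 1.54% of all such genes). MCL1 had 268, 269 and 271 CPM in the untreated libraries, 276, 272 and 248 at 0.15 µM and 345, 382 and 427 at 0.25 µM. MCL1 reached 767, 849 and 1108 CPM at 0.5 µM and 912, 860.2 and 879 at 1 µM. By CPM, MCL1 was already above untreated in all 3 libraries at 0.25 µM, and higher again in all 6 high-dose libraries. With TMM, MCL1 stood against untreated at log2 −0.38 ± 0.13 (SE) at 0.15 µM and −0.01 ± 0.13 (SE) at 0.25 µM, so its low-dose course depended on the scaling. Of the apoptosis regulators, 13 were higher and 19 lower at 0.5 than at 0.25 µM.

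Autophagy contributed 4 members, SQSTM1, ULK1, WIPI2 and MAP1LC3B2. They were among 61 autophagy genes of at least 1 CPM in untreated cells (6.56%, beside 1.54% of all such genes). On TMM-scaled CPM, SQSTM1 and ULK1 met the rule but WIPI2 and MAP1LC3B2 did not. SQSTM1 (ENSG00000161011.20, chr5:179806398-179838078, plus strand) changed most. SQSTM1 had 122, 109 and 106 CPM in the untreated libraries, 104, 97.5 and 105 at 0.15 µM and 148, 124 and 100.5 at 0.25 µM. SQSTM1 reached 638, 547 and 476 CPM at 0.5 µM and 608, 677 and 521 at 1 µM. The 9 libraries at the lower doses spanned 97.5 to 148 CPM and the 6 at the higher doses 476 to 677 CPM, with a step of log2 2.32 ± 0.21 (SE) from 0.25 to 0.5 µM. An exon of another gene on the opposite strand covered 22.4% of the exon bases of SQSTM1, and whether counting used strand is not stated. ULK1 had 25.7, 24.7 and 25.8 CPM in the untreated libraries, 36.7, 35.5 and 41.3 at 0.15 µM and 32.6, 30.3 and 43.7 at 0.25 µM. ULK1 reached 62.3, 76.0 and 116 CPM at 0.5 µM and 94.9, 64.6 and 83.4 at 1 µM. By CPM, ULK1 was above untreated in all 12 treated libraries, and replicate 3 at 0.5 µM was its highest. With TMM, ULK1 stood against untreated at log2 0.22 ± 0.16 (SE) at 0.15 µM and −0.05 ± 0.16 (SE) at 0.25 µM. WIPI2 stood at 2.33 and 2.30 times untreated at the 2 high doses and MAP1LC3B2 at 2.16 and 2.31 times. MAP1LC3B2 is a near copy of MAP1LC3B, so reads may be divided between them. MAP1LC3B stood at mean 127, 88.4, 128, 265 and 245 CPM from untreated cells to 1 µM, so that it fell short of the rule. Of the 66 tested autophagy genes, members included, 24 were higher and 7 lower at 0.5 than at 0.25 µM (19 and 7 with library totals), with a list median of log2 0.26 beside 0.02 over all tested genes. Among the others, ATG2A, a lipid transfer protein of the growing autophagosome, had log2 1.58 ± 0.19 (SE) for 0.5 against 0.25 µM, adjusted p = 3.02e-06 by the quasi-likelihood test of edgeR. It had left the band already at 0.15 µM, at 125 CPM against 74.0 in untreated cells.

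The lysosome list also held 4 members, among 92 genes of at least 1 CPM in untreated cells (4.35%, beside 1.54% of all such genes). On TMM-scaled CPM, MCOLN1 met the rule but NPC1, ATP6V0D1 and ATP6V1D did not. GNPTG, which takes part in tagging lysosomal enzymes with mannose 6-phosphate, was a member outside the list. MCOLN1 (ENSG00000090674.16, chr19:7522624-7534009, plus strand) encodes the lysosomal calcium channel TRPML1. MCOLN1 had 19.96, 17.7 and 20.2 CPM in the untreated libraries, 17.3, 17.0 and 22.1 at 0.15 µM and 23.3, 21.2 and 15.5 at 0.25 µM. MCOLN1 reached 65.96, 67.4 and 47.6 CPM at 0.5 µM and 60.4, 69.3 and 54.3 at 1 µM. No high-dose library overlapped with the others, and the low-dose means were 0.975 and 1.04 times untreated. NPC1 (ENSG00000141458.13, chr18:23506184-23586506, minus strand), which exports cholesterol from lysosomes, behaved alike at a smaller ratio. NPC1 had 49.7, 54.4 and 51.2 CPM in the untreated libraries, 56.1, 62.7 and 43.4 at 0.15 µM and 47.9, 61.3 and 70.1 at 0.25 µM. NPC1 reached 120.4, 130.1 and 141 CPM at 0.5 µM and 134, 115 and 119 at 1 µM. Its groups likewise did not overlap between low and high doses. ATP6V0D1 and ATP6V1D, subunits of the proton pump that acidifies lysosomes, stood at 2.27 and 2.42 and at 2.40 and 2.19 times untreated. GNPTG had 18.4 ± 0.742 CPM untreated and 38.7 ± 5.97 at 0.5 µM (SD, n = 3), with 50.6% of its exon bases under an exon of the opposite strand. Of the 100 tested lysosome genes, 36 were higher and 18 lower at 0.5 than at 0.25 µM (28 and 24 with library totals), and the list median was log2 0.18 (0.03 with library totals), where the median of all tested genes was 0.02 (−0.12 with library totals). NEU1, a sialidase, had the highest step of the list (log2 2.91 ± 0.24 (SE) for 0.5 against 0.25 µM, adjusted p = 3.82e-08 by the quasi-likelihood test of edgeR). NEU1 stood at mean 46.8, 89.95, 158, 1058 and 1044 CPM from untreated cells to 1 µM, which put it outside the rule because it had passed the band at 0.15 µM.

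The CLEAR element, taken as the E-box CACGTG with GT before it and AC after it, was searched on both strands in the RefSeq promoters of GRCh38.p14, from 250 bases before to 50 after each start site. It was found in 3 of the 151 members with a promoter in that table (1.99%) and in 0.860% of 9189 expressed protein-coding genes. Every CLEAR match also counts as an E-box match (CACGTG, 8.61% of members and 10.5% of expressed genes). The 3 members were MCOLN1, GNPTG and PIERCE1, the last a protein of ciliary axonemes. Their 150 bases before the start site are shown 5′ to 3′ on the strand of the gene, to place the element beside the values given for MCOLN1 and GNPTG, with the CLEAR element in capitals.
MCOLN1 (chr19:7522474-7522623, plus strand): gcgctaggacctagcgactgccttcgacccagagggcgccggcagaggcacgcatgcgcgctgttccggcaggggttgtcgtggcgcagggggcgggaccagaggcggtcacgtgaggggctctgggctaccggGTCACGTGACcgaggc
GNPTG (chr16:1351781-1351930, plus strand): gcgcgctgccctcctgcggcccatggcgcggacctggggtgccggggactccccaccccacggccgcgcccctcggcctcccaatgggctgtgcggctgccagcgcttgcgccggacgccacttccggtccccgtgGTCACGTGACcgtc
PIERCE1 (chr9:135499870-135500019, minus strand): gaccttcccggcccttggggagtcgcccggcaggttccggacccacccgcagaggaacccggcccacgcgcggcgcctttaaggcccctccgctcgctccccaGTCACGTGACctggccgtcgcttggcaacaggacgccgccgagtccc
The element began 16, 14 and 47 bases before the start of MCOLN1, GNPTG and PIERCE1. The promoter of MCOLN1 held a further CACGTG, left in lower case. That of GNPTG also held a further CACGTG, after the start site and so outside the bases shown. PIERCE1 had 3.32 ± 0.282 CPM untreated and 9.44 ± 2.94 at 0.5 µM (SD, n = 3). These matches are a description of the letters and not evidence of binding.

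The heat shock members were DNAJB1 (ENSG00000132002.9, chr19:14514769-14560391, minus strand) and HSPA1A (ENSG00000204389.10, chr6:31815543-31817946, plus strand), an HSP40 and an HSP70 chaperone. They were 2 of 40 chaperone genes of at least 1 CPM in untreated cells (5%, beside 1.54% of all such genes). DNAJB1 had 239.8, 222 and 218 CPM in the untreated libraries, 165, 171 and 185 at 0.15 µM and 223, 192 and 138 at 0.25 µM. DNAJB1 reached 1019.6, 856 and 659 CPM at 0.5 µM and 913, 1071 and 704 at 1 µM. All 3 libraries at 0.15 µM lay below the untreated libraries, and all 6 high-dose libraries lay above them. HSPA1A had 87.1, 100.1 and 92.7 CPM in the untreated libraries, 82.9, 86.9 and 86.5 at 0.15 µM and 76.6, 73.7 and 57.4 at 0.25 µM. HSPA1A reached 286, 279.6 and 204 CPM at 0.5 µM and 347, 238 and 252 at 1 µM. HSPA1A was lowest at 0.25 µM, all 6 low-dose libraries lay below the untreated ones, and at the high doses no library overlapped with the others. The low-dose ratios by CPM were 0.767 and 0.814 for DNAJB1 and 0.916 and 0.742 for HSPA1A. With TMM, DNAJB1 stood against untreated at log2 −0.74 ± 0.24 (SE) at 0.15 µM and −0.80 ± 0.24 (SE) at 0.25 µM. HSPA1A stood at −0.49 ± 0.21 (SE) and −0.94 ± 0.21 (SE), and neither gene met the rule on TMM-scaled CPM. HSPA1A and HSPA1B encode the same protein from nearly identical copies, so the division of reads between them is uncertain. HSPA1B stood at mean 67.8, 58.8, 41.3, 139 and 158 CPM from untreated cells to 1 µM, and its mean at 0.25 µM was below the band. Of 48 tested chaperone genes, these 2 included, 12 were higher and 14 lower at 0.5 than at 0.25 µM (9 and 16 with library totals), and 13 were higher and 30 lower at 1 µM than untreated, beside 38.8% and 27.5% of all genes. HSP90AA1, the inducible HSP90, rose from 0.25 to 0.5 µM (log2 0.86 ± 0.18 (SE) for 0.5 against 0.25 µM, adjusted p = 0.00127 by the quasi-likelihood test of edgeR) but its mean at 1 µM was below untreated, at 1743 against 2205 CPM.

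TUBB4B (ENSG00000188229.6, chr9:137241287-137243707, plus strand), a β-tubulin, had the largest change among the tubulin members. TUBB4B had 605, 586 and 593 CPM in the untreated libraries, 607, 626 and 676 at 0.15 µM and 982, 988 and 631 at 0.25 µM. TUBB4B reached 3701, 3267 and 1688 CPM at 0.5 µM and 3149, 3475 and 2727 at 1 µM. The groups did not overlap between low and high doses, but replicate 3 at 0.5 µM reached only 1688 CPM, so the SD at this dose was 1060 CPM around a mean of 2885 (n = 3). The place of TUBB4B in the band at 0.25 µM rested on replicate 3, at 631 CPM beside 982 and 988. Without the libraries of replicate 3 at 0.25 and 0.5 µM, or with group medians, TUBB4B did not meet the rule. DYNLL2, a dynein light chain, stood at 2.22 and 2.19 times untreated. Of 84 tested tubulin and microtubule genes, 34 were higher and 6 lower at 0.5 than at 0.25 µM (32 and 8 with library totals), with a list median of log2 0.31. Among the other tubulin genes, TUBA1A rose over this step but had left the band before it. TUBA1A stood at mean 19.1, 152, 289, 889.6 and 874 CPM from untreated cells to 1 µM (log2 1.77 ± 0.29 (SE) for 0.5 against 0.25 µM, adjusted p = 0.000163 by the quasi-likelihood test of edgeR). TUBB stood at mean 2425, 1603, 1313, 1359 and 1356 CPM from untreated cells to 1 µM, and TUBB did not pass the test between 0.25 and 0.5 µM (adjusted p = 0.428, edgeR). Outside the list, the members IFT172, IFT20 and CLUAP1, proteins of intraflagellar transport, stood at 2.31 and 2.19, 2.21 and 2.02 and 2.36 and 2.31 times untreated at 0.5 and 1 µM. These 3 were picked after their values were seen.

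Chromatin and histone members were H2BC21, H2BC7, H1-3, KDM3A, KDM5A, SIRT2 and SIRT7. Of genes with at least 1 CPM in untreated cells, members were 5 of 110 chromatin regulators (4.55%) and 3 of 44 histone genes (6.82%). The share over all such genes was 1.54%, and H2BC21 was counted in both lists. On TMM-scaled CPM, H2BC21 and SIRT2 met the rule, and H2BC7, H1-3, KDM3A, KDM5A and SIRT7 did not. H2BC21, a histone H2B, stood at 34.4 ± 3.12 CPM untreated, 47.0 ± 11.3 at 0.25 µM, 128 ± 20.96 at 0.5 µM and 144 ± 23.3 at 1 µM (SD, n = 3). H1-3 and H2BC7 lie 34224 bases apart on chromosome 6 and stood at 2.23 and 2.61 and at 2.35 and 2.42 times untreated. Of 61 tested histone genes, 39 were higher and 1 lower at 0.5 than at 0.25 µM (33 and 1 with library totals), with a list median of log2 0.99 (0.84 with library totals). Most histone mRNAs are not polyadenylated, and the libraries were selected for poly(A), so these values cover polyadenylated histone transcripts. H1-4 fell just outside the rule, at 0.635 and 0.667 times untreated at the low doses and at 3.09 and 2.97 times at the high doses. SIRT2 and SIRT7, NAD-dependent deacetylases, stood at 2.73 and 2.92 and at 2.38 and 2.43 times untreated. KDM3A and KDM5A are histone demethylases. KDM3A had 43.3, 43.5 and 42.2 CPM in the untreated libraries, 45.5, 47.4 and 31.6 at 0.15 µM and 46.4, 60.4 and 80.5 at 0.25 µM. KDM3A reached 79.9, 75.3 and 109 CPM at 0.5 µM and 86.2, 80.2 and 97.5 at 1 µM. Replicate 3 of KDM3A at 0.25 µM lay above 3 of the 6 high-dose libraries, so its groups overlapped. Of 111 tested chromatin regulators, 38 were higher and 21 lower at 0.5 than at 0.25 µM (24 and 24 with library totals).

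The remaining list members were spread over several systems. IDI1, an isomerase of sterol synthesis, stood at 2.51 and 2.33 times untreated at 0.5 and 1 µM, and FABP3, a fatty acid binding protein, at 3.66 and 3.63 times. GCLC, which makes the precursor of glutathione, stood at 2.08 and 2.02 times, and GPX4, which removes lipid peroxides, at 2.02 and 2.01 times. GPX4 had 177, 160.3 and 171 CPM in the untreated libraries, 169.8, 141 and 159.5 at 0.15 µM and 223, 214 and 119 at 0.25 µM. GPX4 reached 482, 346 and 198 CPM at 0.5 µM and 309, 437 and 274 at 1 µM. Replicate 3 of GPX4 at 0.5 µM lay below 2 libraries at 0.25 µM, so the low- and high-dose libraries overlapped. UBE2S, an E2 enzyme that works with the anaphase promoting complex, varied widely within groups. UBE2S had 409.6, 309 and 348 CPM in the untreated libraries, 474, 374 and 560.0 at 0.15 µM and 704, 449 and 197 at 0.25 µM. UBE2S reached 1339, 1022 and 348 CPM at 0.5 µM and 854, 1469.5 and 805 at 1 µM. Its libraries of replicate 3 were far below the others of their groups at 0.25 and 0.5 µM, and its groups overlapped. Without these libraries UBE2S did not meet the rule. POLH, a translesion DNA polymerase and p53 target, stood at 2.33 and 2.42 times untreated. NRARP, an inhibitor of Notch signalling, and SUFU, an inhibitor of Hedgehog signalling, stood at 2.46 and 2.76 and at 2.86 and 2.82 times. By CPM, NRARP was below untreated at 0.25 µM (ratio 0.733), whereas SUFU was above it (ratio 1.47). With TMM, SUFU stood at log2 0.04 ± 0.19 (SE) at this dose. SNAP29, a SNARE of autophagosome fusion, stood at 2.17 and 2.17 times untreated, and the endocytic recycling proteins EHD1 and EHD4 stood at 2.03 and 2.25 and at 2.06 and 2.19 times. Solute carriers gave 5 members among 202 genes of at least 1 CPM in untreated cells (2.48%, where 1.54% of all such genes were members). They were SLC6A8, SLC12A4, SLC25A44, SLC26A6 and SLC45A4, which stood between 2.02 and 3.33 times untreated at the high doses. Zinc finger (ZNF) genes gave 8 members among 386 such genes (2.07%), a share near that of all genes. Among members of high ratio or high count outside these systems, TMEM198 stood at 4.57 and 4.97 times untreated, VMAC at 5.59 and 4.82, MEIOC, a meiotic factor, at 4.95 and 4.42, and the potassium channel KCNK12 at 3.99 and 4.35 times. TPI1, a glycolytic enzyme, had 876 ± 44.2 CPM untreated and 2110.2 ± 373 at 1 µM (SD, n = 3), and INTS1, a subunit of the Integrator complex, stood at 2.04 and 2.17 times untreated.

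Of the 34 gene lists examined, 51 members fell in at least 1 and 121 in none. Among genes of at least 1 CPM in untreated cells, members made up 4.26% of 47 immediate early, 2.99% of 67 tubulin and 2.80% of 107 membrane traffic genes. They made up 5% of 40 antioxidant, 4% of 50 Notch, Wnt and Hedgehog and 3.28% of 61 cholesterol and fatty acid genes. The shares given for all lists rest on library totals and were not computed for other scalings. No member belonged to the lists for the integrated stress and unfolded protein responses, interferon and MHC class I, the cell cycle, TGF-β, the actin cytoskeleton, or erythroid, megakaryocyte and neuronal genes. These lists held 22 to 101 genes of at least 1 CPM in untreated cells. As only 1.54% of all such genes were members, the lack of a member in lists of this size is near the overall share. The erythroid list moved the other way over the same step, with 1 of 51 tested genes higher and 33 lower at 0.5 than at 0.25 µM by the quasi-likelihood test of edgeR. GATA1, a transcription factor of erythroid cells, stood at means of 262 CPM untreated, 197 at 0.25 µM and 16.2 at 0.5 µM, and TAL1 at 97.9, 152 and 27.3 CPM. HBZ (841 CPM untreated and 174 at 0.25 µM) and KLF1 (326 and 55.9 CPM) were already low at 0.25 µM, where the members were in the band, and HBG1 stood at 101 CPM untreated and 97.2 at 1 µM. The markers thus had no common course beside the members, and their part in the values of the members was not tested.

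**Figure D2:**
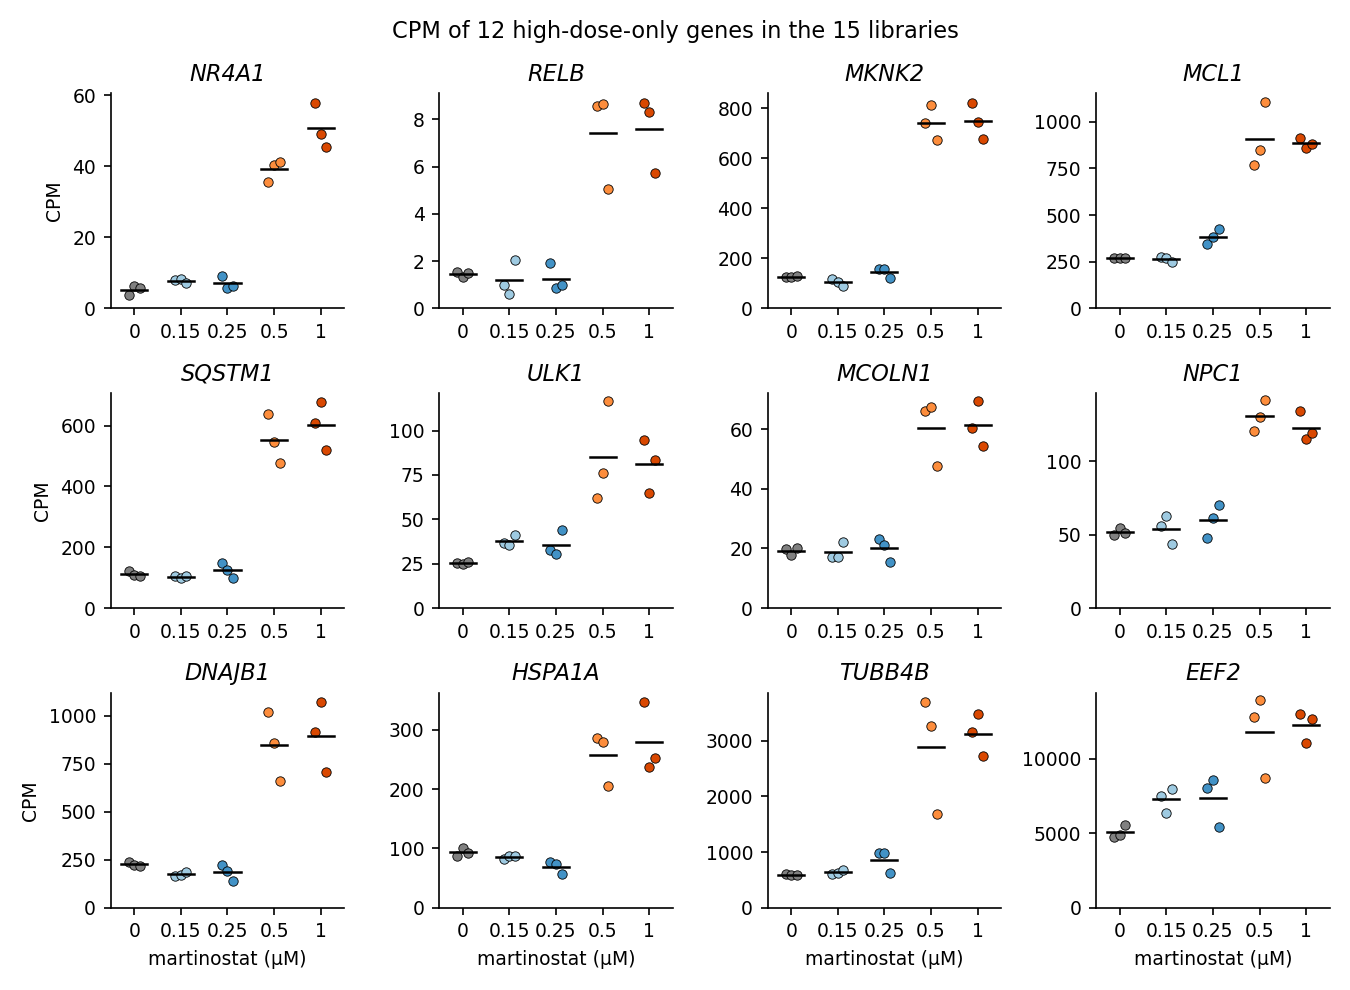
CPM of 12 members in each of the 15 libraries against the martinostat dose (µM), with a point per library, a line at the group mean and a linear axis from 0 for each gene. In each of the 12 genes, the 6 points at 0.5 and 1 µM lie above the 9 others.

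**Figure D3:**
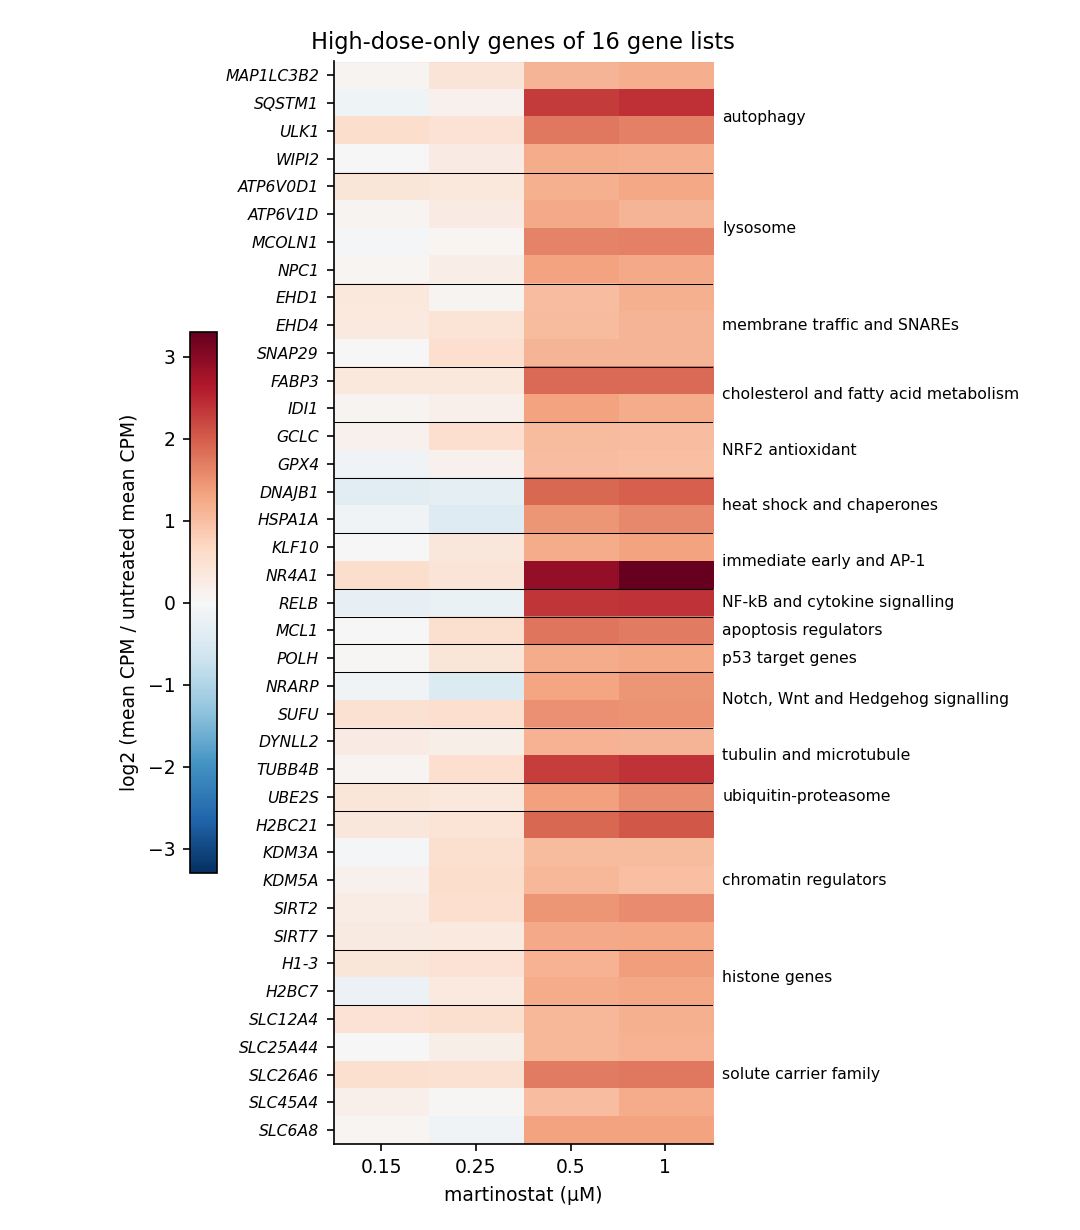
Heat map of log2 of the group mean CPM over the untreated mean at the 4 doses for 39 members of 16 gene lists. Columns at 0.15 and 0.25 µM are pale and columns at 0.5 and 1 µM are red in all rows, with NR4A1 highest.

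The step from 0.25 to 0.5 µM is set in large part by the rule. All 172 members passed the filter on low counts and had a positive change, with a median of log2 1.07 and a range from 0.64 to 2.74. By edgeR 168 were called higher at an adjusted p under 0.05, where 30.4% of all 23711 tested genes were called (14.4% higher and 16% lower). With the replicate number as a block, 169 were called over all libraries and 172 in the libraries at 0.25 and 0.5 µM alone. In contrast, the step from 0.15 to 0.25 µM had a median of log2 0.01 (−0.67 to 0.72), with 6 members higher and 2 lower beside 4.96% and 7.32% of all genes. The median member had 27.5% of its log2 ratio at 1 µM already at 0.25 µM, by CPM. At 0.25 µM 33 members stood under 1.1 times untreated and 51 over 1.4 times.

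The rule set no limit on the difference between 0.5 and 1 µM, but it required 2 times untreated at both doses. Genes that fell back below this level at either dose had been removed, which limits how far members could differ, and the values are given as a description. No member was called by edgeR (0 of 172, beside 0% of 23711 genes), none by DESeq2 and none by limma on log2(FPKM + 1). None had an unadjusted p under 0.05 by edgeR, where 372 of all genes did. The changes ranged from log2 −0.26 to 0.39 with a median of 0.01 and a median SE of 0.18, and 84 members were higher at 1 than at 0.5 µM by CPM. The largest rise was that of NR4A1, at log2 0.39 ± 0.20 (SE). The next were H1-3 at 0.26 ± 0.23 (SE), ASF1B, a histone chaperone, at 0.24 ± 0.30 (SE) and UBALD2 at 0.24 ± 0.25 (SE). The lowest were ZNF674 at −0.26 ± 0.24 (SE), SYF2, a splicing factor, at −0.21 ± 0.16 (SE), SERAC1 at −0.19 ± 0.18 (SE) and VMAC at −0.18 ± 0.24 (SE). In 5 members, NR4A1, GIT1, SEPHS2, CETN2 and SYF2, the 3 libraries at 1 µM lay all above or all below the 3 at 0.5 µM. The share of all genes with such a separation was not computed, and none of these 5 was called, so they are not read as changed. At this spread, changes of a size near the SE were not detectable.

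**Figure D4:**
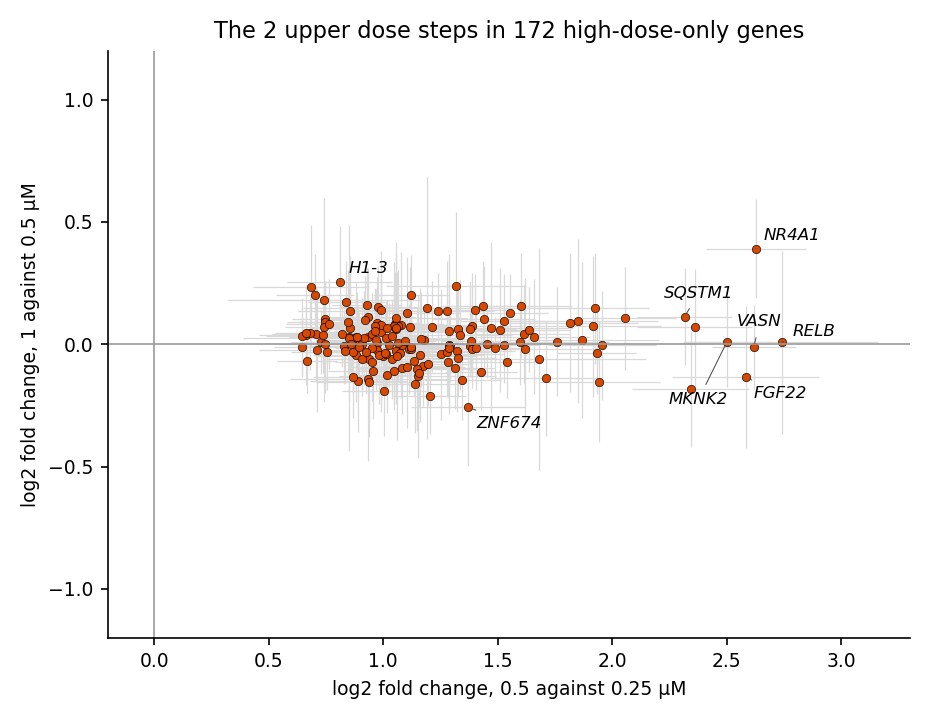
Log2 fold change from 0.25 to 0.5 µM (horizontal) and from 0.5 to 1 µM (vertical) for the 172 members, fitted by edgeR with TMM scaling, with bars of 1 SE. All points lie right of 0 on the horizontal axis, between 0.64 and 2.74, and scatter between −0.26 and 0.39 on the vertical axis.

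The level at the low doses depended on how libraries were scaled. The TMM scaling of edgeR, which assumes that most genes do not change, gave factors of 0.784 to 0.828 to the untreated libraries and of 0.950 to 1.28 to the treated ones. On this scale the median expressed protein-coding gene stood, in order of rising dose, at log2 −0.25, −0.37, −0.37 and −0.37, and the median member at −0.23, −0.14, 0.89 and 0.91. With library totals, on which the rule rests, the medians were 0.11, 0.15, 0.00 and −0.02 for expressed genes and 0.13, 0.38, 1.26 and 1.27 for the members. Accordingly, 38 members were called lower and 0 higher at 0.15 µM with TMM (19.4% and 31.9% of all genes), but 1 lower and 25 higher with library totals. At 0.25 µM the counts were 21 lower and 0 higher with TMM (24.8% and 37.4% of all genes), and 1 lower and 69 higher with library totals. At 0.5 and 1 µM 165 members were called higher with TMM and 172 with library totals, and none was called lower (with TMM 66.9% and 66.2% of all genes were called, and 39.4% and 38.8% called higher). The step from 0.25 to 0.5 µM varied little with the scaling, at medians from 0.92 to 1.102 and with 165 to 169 members called higher. Applied to TMM-scaled CPM, the rule gave 218 genes, of which only 36 were among the 172. These 36 were kept under all 4 scalings, and 70 of the 172 were kept when each of the 15 libraries was left out in turn. Both conditions held for 11 genes, among them ESS2, FABP3, H2BC21, MCOLN1, MED29, PARP16, SQSTM1, TULP3, VMAC and ZKSCAN5.

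**Figure D5:**
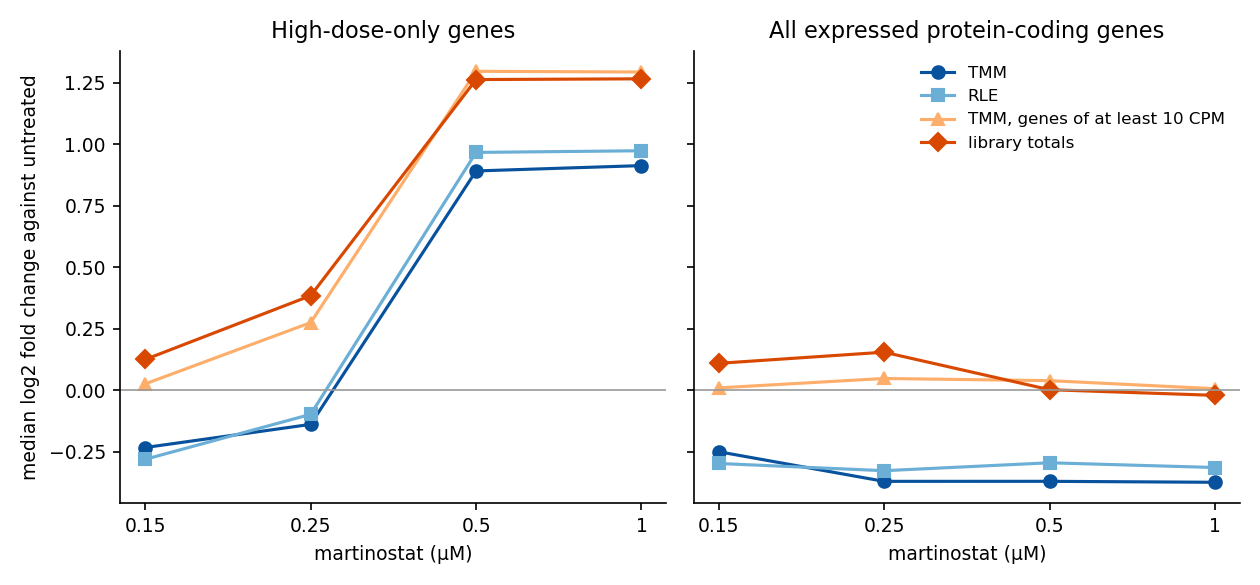
Median log2 fold change against untreated at each dose (µM) under 4 scalings, for the 172 members (left) and for all expressed protein-coding genes (right). The members lie between −0.28 and 0.38 at the low doses, below 0 with TMM and RLE and above 0 with the other scalings, and between 0.89 and 1.30 at the high doses.

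Several members lay close to the limits of the rule. Just inside the 2-fold limit were SBF1 (2.00 and 2.17 times untreated at 0.5 and 1 µM), KDM5A (2.13 and 2.00) and GPX4 (2.02 and 2.01). Just outside it were RTN3 (2.06 and 2.00, the latter below the limit before rounding), GBF1 (2.00 and 2.01, the former below it) and C1orf50 (2.17 and 1.99). At the upper edge of the low-dose band, NKIRAS2, WDR7 and KDM5A were inside with 1.499, 1.493 and 1.491 times untreated at 0.25 µM. SCAPER and YIPF1 were outside with 1.502 and 1.503. At the lower edge, NANOS1, FAM200A and SPDYE12 were inside with 0.673, 0.682 and 0.731 times untreated at 0.15 µM.

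In their gene structure the members were somewhat shorter than other genes, with a median span of 23.2 kb against 33.03 kb for all expressed protein-coding genes, although their exons together were of like length (6.12 against 5.48 kb). Their promoters had a median GC content of 66%, against 65.7%, and a ratio of observed to expected CpG of 0.843, against 0.851. On chromosome 19 lay 26 members (15.1%, against 7.66% of expressed protein-coding genes) and on chromosome 16 lay 17 (9.88% against 4.83%). Pairs of members within 200 kb of each other numbered 9. Among them were TUBB4B and NRARP, ABHD17A and MKNK2, and H2BC7 and H1-3. ZNF394, ZKSCAN5 and FAM200A followed each other on chromosome 7, where ZNF394 and ZKSCAN5 overlap. In 14 members over 20% of the exon bases lay under an exon of another gene, with ARL2BP (91.3%), CFAP119 (72.3%) and ALDOA (54.2%) highest, and reads of such genes may be shared.

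Motifs were searched on both strands of the 151 promoters. The CCAAT box (CCAAT) was present in 47.7% of members and 37.6% of expressed genes, the GC box (GGGCGG) in 76.2% and 71.9%, and the ETS site (CCGGAAG) in 20.5% and 20.9%. The cyclic AMP response element (TGACGTCA) was in 3.31% and 3.55%, the AP-1 site (TGANTCA) in 1.32% and 4.00%, and the antioxidant response element (TGACNNNGC) in 16.6% and 15.1%. The CARE motif of ATF4 (TGATGNAA) was in 1.32% and 1.49%, and the NRF1 site in 0.662% and 2.41%. A heat shock element (alternating GAA and TTC units, 3 in all, spaced by 2 bases) was matched in 1 member, IFT172 (0.662% against 0.261%). The TATA box (TATAAA) was matched in 16 members (10.6%, against 5.20%). On the strand of the gene and 25 to 45 bases before the start, a window chosen after the positions had been seen, it was in 12 members (7.95%) and in 1.55% of expressed genes. The 12 were CSKMT, EEF2, EIF4A2, GCLC, H1-3, H2BC21, HSPA1A, MKNK2, NRARP, NXF1, SEPHS2 and UBE2S. The 150 bases before the start of 4 of these are shown 5′ to 3′ on the strand of the gene, because their counts were described in full, with the TATA box in capitals.
HSPA1A (chr6:31815393-31815542, plus strand): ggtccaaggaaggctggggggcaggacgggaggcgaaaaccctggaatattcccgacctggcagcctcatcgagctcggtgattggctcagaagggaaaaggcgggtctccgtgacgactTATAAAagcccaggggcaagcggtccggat
EEF2 (chr19:3985464-3985613, minus strand): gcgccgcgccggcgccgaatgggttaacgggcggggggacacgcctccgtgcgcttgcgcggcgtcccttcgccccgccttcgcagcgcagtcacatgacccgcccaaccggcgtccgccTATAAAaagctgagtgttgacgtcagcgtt
MKNK2 (chr19:2051245-2051394, minus strand): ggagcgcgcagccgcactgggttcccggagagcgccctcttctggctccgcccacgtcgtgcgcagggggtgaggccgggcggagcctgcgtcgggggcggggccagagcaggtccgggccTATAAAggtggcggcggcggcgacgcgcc
UBE2S (chr19:55407789-55407938, minus strand): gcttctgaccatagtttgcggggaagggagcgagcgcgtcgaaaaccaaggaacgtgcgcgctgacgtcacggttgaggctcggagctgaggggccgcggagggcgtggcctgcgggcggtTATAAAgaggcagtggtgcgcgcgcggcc
The box began 30 bases before the start in HSPA1A and EEF2, and 29 in MKNK2 and UBE2S. A match describes the letters of the window and shows neither binding nor a role in the response.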

How the data were processed

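Polyadenylated RNA of 15 K-562 libraries (5 groups of 3) was sequenced by the authors from a directional kit. Reads were trimmed with Trim Galore 0.6.10, aligned to hg38 with HISAT2 2.2.1, sorted with SAMtools 1.21 and counted per gene with featureCounts 1.5.3, per the labels. The strand setting of the counting is not given in the sources used here. The deposited values are raw counts per gene, and FPKM values that the authors made from them. The gene length in FPKM was the genomic span with introns, so levels were not compared between genes on that scale.

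Protein-coding genes and coordinates came from GENCODE 44 (hg38), and promoters from RefSeq (GRCh38.p14). CPM used library totals (23755510 to 32805574 counts). Counts of 23711 genes left by filterByExpr were fitted with edgeR 4.0.16 (R 4.3.3) over all 15 libraries, with TMM scaling, the quasi-likelihood F test and Benjamini-Hochberg adjustment at 0.05. DESeq2 1.42.0, limma 3.58.1 on log2(FPKM + 1), other scalings and filters, and left-out libraries were alternatives. The fitting was tested on simulated data. The members and gene lists were chosen with earlier results of these data known. Members named were those with the 10 highest ratios at 1 µM, the 8 highest untreated means, up to 4 per list, the 4 highest and 4 lowest changes from 0.5 to 1 µM, the 5 highest from 0.25 to 0.5 µM, and 3 on each side of each threshold. Other genes were named after their values were seen. A few genes that these rules name are not reported here. Same-numbered replicates at 0.25 and 0.5 µM deviated together from their group means (correlations of 0.266, 0.268 and 0.579). The different-numbered pair of replicate 2 at 0.25 and 1 at 0.5 µM reached 0.236, so a pairing by number rests mainly on replicate 3. The main fit had no block, and fits with the replicate number as a block are given beside it. Other same-numbered pairs gave −0.0663 to 0.0918. The labels call the replicates biological.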

Additional observations from a re-analysis of the deposited data

How the results depend on the processing

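The number of genes meeting the rule was 265 with TMM factors from well-expressed genes (10 CPM or more), which kept 170 of the original members, 558 at 1.5 times untreated, 25 at 3 times, 53 with a narrower band, and 270 with ratios divided by the median of expressed genes, an alternative chosen after seeing the data. TMM and RLE scaling gave 218 and 248 genes, with only 36 and 49 of the 172 among them, and leaving out 1 library gave 163 to 203. Leaving out replicate 3 at both 0.25 and 0.5 µM gave 177 genes, with 128 of the 172 among them. Among the members lost in this way were TUBB4B, EEF2, UBE2S, SIRT2, SIRT7, SUFU, H1-3, GCLC, KDM3A, TMEM198 and KCNK12. Members called at 0.15 µM against untreated (38, all lower) numbered 18 with TMM from genes of at least 10 CPM (7 higher), 17 with a filter of 10 counts in every library (1 higher), 11 with limma (10 higher) and 26 with library totals (25 higher). They numbered 23 to 48 with 1 library left out, with 24 and 23 without untreated replicates 2 and 3. At 0.25 µM the 21, all lower, turned to mostly higher calls: 46 with TMM from genes of at least 10 CPM (41 higher), 70 with library totals (69 higher), 41 with limma (40 higher) and 14 with the filter of 10 counts (9 higher). They numbered 13 to 28 with 1 library left out, with 13 without replicate 3 at 0.25 µM. For 0.25 against 0.15 µM, the 8 became 24 with DESeq2, 13 with RLE, 27 with TMM from genes of at least 10 CPM, 23 with the strict filter, 19 with library totals, 1 with only the libraries compared, 13 without replicate 3 at both 0.25 and 0.5 µM, and 1 to 16 with 1 library left out. In all these the cause was not tested. The calls at 0.5 and 1 µM against untreated (157 to 170 with 1 library left out), at 0.5 against 0.25 µM (158 to 170) and at 1 against 0.5 µM (0 throughout) stayed within 1.5 times. The replicate block gave 38, 22, 166 and 168 calls at the 4 doses against untreated, 6 for 0.25 against 0.15 µM, 169 for 0.5 against 0.25 µM (the comparison with correlated replicates) and 0 for 1 against 0.5 µM. For the step from 0.25 to 0.5 µM, EEF2, GPX4, KDM3A, ZNF707 and SPDYE12 lost their call under at least 1 alternative. For 1 µM against untreated and 0.5 against 0.25 µM, no named gene changed direction with a call, and the low-dose comparisons were not run gene by gene. With 3 libraries a group, changes near the SE could not be detected.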
